A study of Rattus norvegicus with 6 samples.

Results

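Claudins are the membrane proteins of the tight junction that set which ions and how much water pass between the cells of an epithelium. The 10 claudin genes described here are members known from segments of the nephron or its vessels, Cldn1, Cldn2, Cldn3, Cldn4, Cldn5, Cldn7, Cldn8, Cldn10, Cldn16 and Cldn19. They were found by gene name among the 35561 gene names of the array, whatever their values, which gave 12 of 41012 probes: Cldn1 and Cldn4 have 2 probes each and the others 1. All 12 probes were among the 30917 that passed a filter on dim probes.

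The RNA came from left kidneys of Han:SPRD rats, a line in which the Cy allele causes polycystic kidneys, in homozygotes earlier and more severely than in heterozygotes. The groups were Cy/Cy and Cy/+ at 7 and 3 days of age, arrays labelled +/+ at both ages, and an age-matched +/+ reference. Each array compared a pool labelled with Cy5 with a +/+ pool labelled with Cy3, so there were 6 arrays, 2 per genotype and 1 per genotype and age. The number of animals in a pool is not given in the sources used here, dyes were never swapped, and all arrays of an age lay on 1 slide with each genotype at a fixed position. Age and slide therefore cannot be told apart, nor can genotype and position. Each Cy5 pool was hybridised once per age, so no p-value measures a spread among animals or among repeated pools. In the fits of the mutant arrays the spread is that between the 7-day and 3-day arrays of a genotype. It is combined with a spread borrowed from all probes.

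Along the nephron, the leaky proximal tubule uses Cldn2 and Cldn10, the thick ascending limb uses Cldn10, Cldn16 and Cldn19 to take up sodium, calcium and magnesium between its cells, and the tight collecting duct carries Cldn3, Cldn4, Cldn7 and Cldn8. Cldn1 is best known for the parietal epithelium of Bowman's capsule and for the skin barrier, and Cldn5 for endothelium. In whole-kidney pools, fewer cells of a segment and less RNA per cell cannot be told apart.

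The sequences below are of 8 of the 12 probes, shown because each value is the signal of that stretch of RNA alone; they are from the deposited scanner files, 5′ to 3′, and capitals mark the longest run shared by any pair of probes of different claudins, 10 bases in Cldn2 and Cldn19. Cldn1 is given by the first 30 bases of each 60-base probe.
Cldn1 brighter probe: tgaaatatgcctaagtagtgtttttccttg
Cldn1 dimmer probe: ggcctcaaactgttgacaatggtaatctaa
Cldn2: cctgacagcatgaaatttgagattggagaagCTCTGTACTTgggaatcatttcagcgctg
Cldn19: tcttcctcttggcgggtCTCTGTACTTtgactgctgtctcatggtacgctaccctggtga
Cldn10: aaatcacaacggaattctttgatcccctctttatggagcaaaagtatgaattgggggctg
Cldn7: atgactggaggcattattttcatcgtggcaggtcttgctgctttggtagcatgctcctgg
Cldn8: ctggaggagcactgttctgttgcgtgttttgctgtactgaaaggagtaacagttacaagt
Cldn4 dimmer probe: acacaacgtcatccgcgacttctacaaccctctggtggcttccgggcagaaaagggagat

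In build rn3, as the files give it, the brighter Cldn1 probe lies at chr11:76545172-76545231 and the dimmer at chr11:76544059-76544118, both on the plus strand. Cldn16 is their neighbour, with its probe at chr11:76371924-76371983 on the minus strand, 173 kb away. Cldn2 lies at chrX:127620222-127620281, Cldn8 at chr11:28421271-28421330 on the minus strand, and the dimmer Cldn4 probe at chr12:22687607-22687666. The probes of Cldn7 at chr10:56826099-56826269, Cldn19 at chr5:139845201-139845361 and Cldn10 at chr15:103795747-103808251 span 171, 161 and 12505 genomic bases, more than the 60 bases of a probe. The Cldn3 and Cldn5 probes map to unplaced sequence of chromosomes 12 and 11. Exon and UTR positions were not used here.

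The arrays labelled +/+ did not resemble their own reference. On the arrays of 7 and then 3 days, the median log2 ratio of their Cy5 channel stood at 4.39 and 5.02 for 6 liver genes, 4.55 and 5.31 for 5 lung genes, −3.05 and −3.41 for 6 proximal tubule genes and −2.96 and −3.54 for 5 thick ascending limb genes without claudins. Their Cy3 reference differed too: its median log2 intensity for the liver genes was 11.45 and 10.94, against 6.83 to 7.17 on the mutant arrays. For the proximal tubule genes it was 14.14 and 14.48, against 14.13 to 14.45. These hybridisations are included in the 3 reference hybridisations per age given below. The cause of the difference was not tested. Every array had signal well above background in both channels for Lrp2, Umod, Slc12a1 and Aqp2, which mark proximal tubule, thick ascending limb and principal cells. This includes Cy5 of the arrays labelled +/+, so for these genes the flag does not set them apart. For other genes it did. Sftpb and Sftpd of the lung list were well above background in Cy5 on both arrays labelled +/+ and on no mutant array. Atp6v1b1 of the intercalated cell list was so on every mutant array and on neither array labelled +/+. The SD of log2 ratios over the probes was 0.156 and 0.174 on the Cy/Cy arrays, 0.235 and 0.317 on the Cy/+ arrays, and at least 0.939 on the arrays labelled +/+ (7 days, then 3 days). The number of arrays limits the precision of everything below. Every claudin spot was well above background in both channels except Cldn16 in Cy5 on both arrays labelled +/+, and none was saturated or flagged by the scanner software. Mutants are therefore set first against the reference on the same array.

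**Figure D1:**
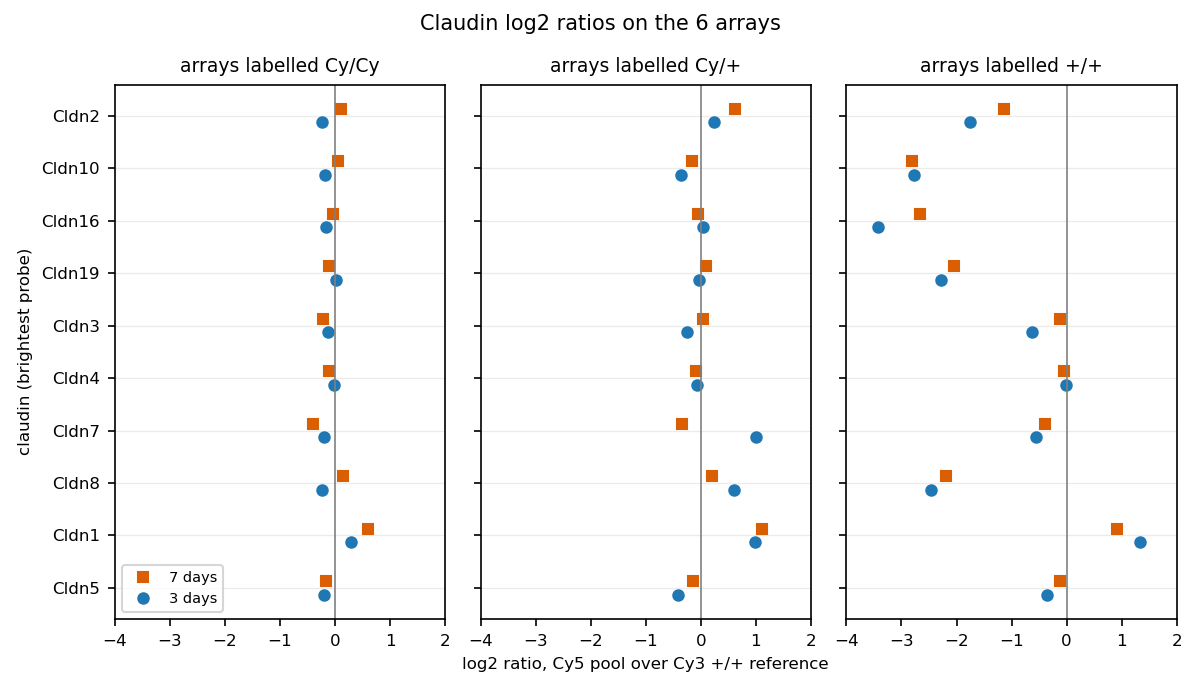
Log2 ratio (x axis) of the Cy5 pool over the Cy3 +/+ reference for the brightest probe of each claudin (y axis), in panels for the Cy/Cy arrays, the Cy/+ arrays and the arrays labelled +/+; squares are 7 days and circles 3 days. On the mutant arrays Cldn1 lies right of 0 at both ages and most other claudins lie within 0.5 of it, while Cldn2, Cldn8, Cldn10, Cldn16 and Cldn19 lie below −1 on both arrays labelled +/+.

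The first question was whether Cy/Cy or Cy/+ kidneys differ in claudin RNA from +/+ kidneys of the same age. Cldn1 was higher in Cy/+ kidneys, about 2-fold and by both of its probes. It had the highest fitted ratio of the 10 genes in Cy/Cy kidneys too, but there it did not pass the test; with median centring in place of loess it did, at 0.79 with adjusted p = 0.00136, in a range over all alternatives between 0.00136 and 1.00. The claudins of the proximal tubule, thick ascending limb and collecting duct passed the test in neither genotype, and Cldn7 was high in the 3-day Cy/+ pool alone.

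The brighter Cldn1 probe had 0.60 (7 days) and 0.30 (3 days) as log2 ratios in Cy/Cy kidneys and 1.11 and 0.98 in Cy/+ kidneys. At 7 and 3 days the dimmer probe gave 0.66 and 0.36 in Cy/Cy kidneys and 1.17 and 0.86 in Cy/+ kidneys. All 4 mutant values were above 0 with both probes, and the Cy/+ values lay above the Cy/Cy values without overlap. In limma's moderated test over all probes, with Benjamini-Hochberg adjustment, the brighter probe was 1.04 ± 0.09 higher in Cy/+ kidneys (log2, SE, n = 2 arrays; 2.06-fold), adjusted p = 0.0071, and the dimmer probe 1.01 ± 0.11 higher, adjusted p = 0.0104. In Cy/Cy kidneys the fitted values were 0.45 ± 0.09 and 0.51 ± 0.11, with adjusted p = 0.411 and 0.419.

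These were the only claudin calls in Cy/+ kidneys, 2 of 12 probes, where 7.93% of all probes were called in either direction, 4.63% higher and 3.3% lower. With ratios taken from the scanner software, the Cy/+ value of Cldn1 was 1.11 with adjusted p = 0.121, and no probe of any gene was called by that setting; over all alternatives its adjusted p ran between 7.88e-06 and 0.121. The ratio of Cldn1 was above 0 on the arrays labelled +/+ as well, at 0.91 and 1.33 with the brighter probe and 0.72 and 1.17 with the dimmer at 7 and 3 days, so it was higher in Cy5 on all 6 arrays. With no dye swap, the part of dye in this ratio was not tested. Of 5 macrophage genes, Cd14 and Lyz2 were called higher in Cy/+ kidneys at 0.52 and 0.47 (adjusted p = 0.0171 and 0.0381), and the list's median was 0.12. Of 3 skin genes, Krt14 had −0.06, Krt5 0.04 and Krt1 −0.17 in the Cy/+ pool at 7 days, where Cldn1 was 1.11, and 1.80, 1.32 and 0.15 at 3 days, where Cldn1 was 0.98, and none was called over both ages. Their part in the Cldn1 value was not tested.

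As single-channel levels, the normalized log2 intensity of Cldn1 at 7 days was 10.55 in the Cy/Cy pool, 11.09 in the Cy/+ pool, 10.77 on the array labelled +/+ and 9.93 ± 0.07 in the reference (SD, n = 3 hybridisations). At 3 days it was 10.68 in the Cy/Cy pool, 11.39 in the Cy/+ pool, 11.66 on the array labelled +/+ and 10.37 ± 0.04 in the reference. With this brighter probe the reference was lowest at both ages, the Cy/Cy pool next, and the highest was the Cy/+ pool at 7 days and the array labelled +/+ at 3 days. With the dimmer probe the reference was also lowest, but at 7 days the array labelled +/+ (8.66) lay below the Cy/Cy pool (8.77). Each pool was hybridised once per age, so no spread stands behind the steps between pools.

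Cldn7, a claudin of the distal nephron and collecting duct whose loss causes salt wasting in mice, had −0.39 (7 days) and −0.20 (3 days) as log2 ratios in Cy/Cy kidneys. In Cy/+ kidneys it had −0.33 at 7 days but 1.01 at 3 days, where its intensity was 11.85 against 10.84 for the reference on the same array. That array alone was high, and 0.676% of all probes were at least 2-fold higher there. The scanner's mean signals for that spot, before any correction, were 5960 in Cy5 and 1790 in Cy3. Over both ages the fitted Cy/+ value was 0.34 ± 0.27, adjusted p = 0.457. Without the 7-day Cy/+ array it was 1.01, adjusted p = 0.00259, and without the 3-day array −0.33; over all alternatives its adjusted p ran between 0.00259 and 0.627.

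On the same 3-day Cy/+ array the 3 skin genes measured had log2 ratios of 1.80 for Krt14, 1.32 for Krt5 and 0.15 for Krt1, 6 principal cell genes had a median of 0.34, ranging from −0.32 for Scnn1b to 0.72 for Aqp3, and 5 macrophage genes had a median of 0.30, ranging from −0.07 for Csf1r to 0.63 for Lyz2. On the other 3 mutant arrays the skin medians lay between −0.06 and 0.15, the principal cell medians between −0.20 and −0.03, and the macrophage medians between −0.02 and 0.11. The part of these cells in the Cldn7 value was not tested.

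Cldn8, which with Cldn4 forms a chloride path between collecting duct cells in mice, had log2 ratios of 0.14 and −0.23 in Cy/Cy kidneys and 0.20 and 0.60 in Cy/+ kidneys (7 days, then 3 days). Its fitted Cy/+ value was 0.40 ± 0.13 with adjusted p = 0.0988, and the Cy/+ values lay above the Cy/Cy values. Without the 7-day Cy/+ array it was 0.60 with adjusted p = 0.0326 and with median centring 0.84 with adjusted p = 0.000303, and over all alternatives its adjusted p ran between 0.000303 and 0.511. Its highest value fell on the array on which Cldn7 was high. Cldn4, its partner, had 8 mutant values between −0.22 and −0.01 over its 2 probes and did not pass the test with either. Cldn3, a sealing claudin of the same cells, had at 7 and 3 days −0.22 and −0.13 in Cy/Cy kidneys and 0.03 and −0.25 in Cy/+ kidneys, and its groups overlapped.

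Cldn2, the cation and water pore of the proximal tubule, had 0.11 (7 days) and −0.23 (3 days) as log2 ratios in Cy/Cy kidneys and 0.63 and 0.24 in Cy/+ kidneys. The Cy/+ values were both above 0 and above the Cy/Cy values, with a fitted value of 0.44 ± 0.12 and adjusted p = 0.0743. With age as a block the same value had adjusted p = 0.0147, within a range over all alternatives between 0.00149 and 0.284. Beside it, 3 of 6 proximal tubule genes were called higher in Cy/+ kidneys (Lrp2, Cubn and Aqp1), where 4.63% of all probes were. The other 3 were below 0, Slc22a6 at −0.33 with adjusted p = 0.05002, Slc5a2 at −0.24 and Slc34a1 at −0.19, and the list's median was 0.10.

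Cldn10, which has an anion-selective isoform in the proximal tubule and a cation-selective isoform in the thick ascending limb, had at 7 and 3 days 0.06 and −0.17 in Cy/Cy kidneys and −0.16 and −0.36 in Cy/+ kidneys; the probe does not say which isoform it reads. Its fitted Cy/+ value was −0.26 ± 0.09, adjusted p = 0.12.

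Cldn16 and Cldn19 work as a pair in the thick ascending limb, and loss of either in people causes magnesium and calcium wasting. At 7 and 3 days Cldn16 had log2 ratios of −0.04 and −0.16 in Cy/Cy kidneys and −0.06 and 0.04 in Cy/+ kidneys. Cldn19 at these ages had −0.11 and 0.02 in Cy/Cy kidneys and 0.09 and −0.04 in Cy/+ kidneys. All 8 values lay within 0.2 of 0 and the genotypes overlapped. The 95% intervals of the fitted Cy/+ values ran from −0.19 to 0.17 for Cldn16 and from −0.16 to 0.22 for Cldn19, and Slc12a1, the cotransporter of the same cells, was lower in Cy/+ kidneys at −0.71, adjusted p = 0.0322. Umod, another product of these cells, had −0.40, adjusted p = 0.0752.

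Cldn5 at 7 and 3 days had log2 ratios of −0.17 and −0.21 in Cy/Cy kidneys and −0.13 and −0.41 in Cy/+ kidneys. Its 4 values were below 0 and the genotypes overlapped, with a fitted Cy/+ value of −0.27 ± 0.09 and adjusted p = 0.105. Without the 7-day Cy/+ array it was −0.41 with adjusted p = 0.0497, and over all alternatives its adjusted p ran between 0.0497 and 0.569. The median of 7 other endothelial genes was 0.03 in Cy/+ kidneys, and none of them passed the test.

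In Cy/Cy kidneys none of the 12 claudin probes was called by limma, where 0.00647% of all probes were (2 of 30916). At an unadjusted p under 0.05 there were 2 claudin probes, both of Cldn1, and 2673 of all probes. The median fitted value of the 10 claudins was −0.06 in Cy/Cy kidneys and 0.01 in Cy/+ kidneys, beside 0.01 and 0.00 over all probes. Apart from Cldn1 and Cldn7, the 95% intervals of the Cy/Cy values lay between −0.40 and 0.26. Only Cldn1 was above 0 in Cy/Cy kidneys and 5 of the 10 in Cy/+ kidneys, but with arrays centred on their median in place of loess all 10 were above 0 in both, as the median of all probes then stood at 0.17 and 0.19. The claudins called under that setting were Cldn1, Cldn4, Cldn10 and Cldn19 in Cy/Cy kidneys and Cldn1, Cldn2, Cldn4, Cldn7, Cldn8, Cldn16 and Cldn19 in Cy/+ kidneys, all higher.

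**Figure D2:**
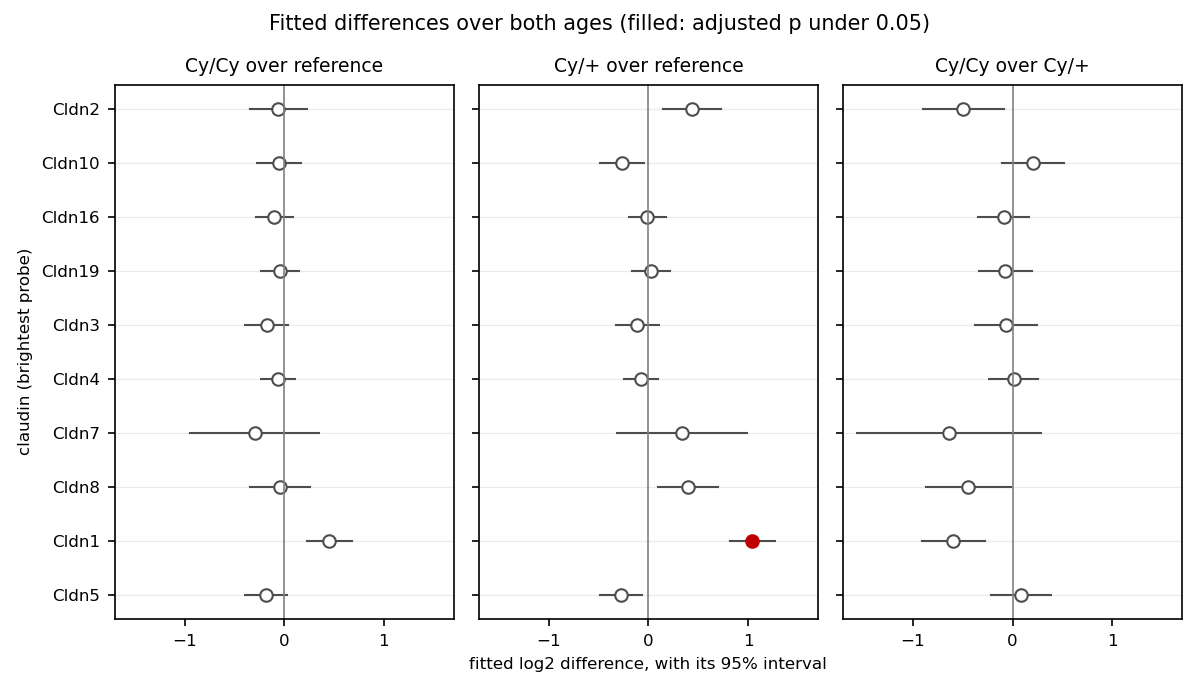
Fitted log2 difference over both ages (x axis, point) with its 95% interval (line) for the brightest probe of each claudin (y axis), for Cy/Cy over its reference, Cy/+ over its reference and Cy/Cy over Cy/+; filled points have an adjusted p under 0.05. Cldn1 in Cy/+, at 1.04, is the only filled point, and Cldn7 has the widest intervals.

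Cy/Cy kidneys were then compared with Cy/+ kidneys. Cldn1 was lower in Cy/Cy kidneys by a fitted −0.59 ± 0.13 with the brighter probe and −0.51 ± 0.16 with the dimmer, with adjusted p = 0.64 and 0.78. Cldn2 stood at −0.49 ± 0.17 and Cldn8 at −0.44 ± 0.18, with adjusted p = 0.811 and 0.815. None of the 12 probes and 0% of all probes were called by limma, and 4 claudin probes had an unadjusted p under 0.05 (both of Cldn1, and those of Cldn2 and Cldn8), beside 1889 of all 30913. These comparisons do not show that the genotypes are alike: the 95% interval for Cldn1 ran from −0.91 to −0.27. Cldn7, at −0.64 ± 0.39, became −1.31 with adjusted p = 0.00468 without the 7-day Cy/+ array and 0.04 without the 3-day one, and its adjusted p ran between 0.00468 and 1.00 over all alternatives.

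The labels also set the mutants against the arrays labelled +/+. Against these, Cldn16, Cldn10, Cldn8, Cldn19 and Cldn2 were higher in both mutant genotypes, and Cldn1, Cldn3, Cldn4, Cldn5 and Cldn7 did not pass the test. Both comparisons share the arrays labelled +/+, which went against their label. The 5 calls, all higher, stand beside 28.9% of all probes called in Cy/Cy kidneys (10.6% higher, 18.4% lower) and 29.6% in Cy/+ kidneys (11% higher, 18.7% lower).

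Cldn16 had −2.66 (7 days) and −3.43 (3 days) as log2 ratios on the arrays labelled +/+, where its Cy5 signal was not well above background. Averaged over both ages, its Cy5 level was at least 8.85-fold higher in Cy/Cy kidneys and at least 8.54-fold higher in Cy/+ kidneys, a bound on normalized means of that channel that is open to dye bias and does not hold for each age: at 7 days alone the log2 levels were 9.06 in Cy/Cy and 9.03 in Cy/+ kidneys and 6.10 on the array labelled +/+. As ratios to the reference the fitted differences were smaller, 7.69-fold in Cy/Cy and 8.18-fold in Cy/+ kidneys, with adjusted p = 0.0007 in both comparisons. Leaving out arrays gave log2 differences between 2.57 and 3.32 in Cy/Cy and between 2.65 and 3.41 in Cy/+ kidneys, and software ratios gave 6.50 and 6.59. Cldn10 had −2.81 and −2.76 there at 7 and 3 days, and the mutants were 2.73 ± 0.13 higher in Cy/Cy (adjusted p = 0.0002) and 2.52 ± 0.13 higher in Cy/+ kidneys (adjusted p = 0.0002). On the same arrays the medians were −2.96 and −3.54 for thick ascending limb genes and −3.05 and −3.41 for proximal tubule genes.

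At 7 and 3 days Cldn8 had log2 ratios of −2.20 and −2.46 on the arrays labelled +/+ and was 2.28 ± 0.21 higher in Cy/Cy and 2.72 ± 0.21 higher in Cy/+ kidneys. Cldn19 had −2.04 and −2.29 there and was 2.12 ± 0.14 and 2.19 ± 0.14 higher in Cy/Cy and Cy/+ kidneys. Cldn2 had −1.15 and −1.75 there and was 1.39 ± 0.13 higher in Cy/Cy and 1.88 ± 0.13 higher in Cy/+ kidneys. These 5 genes were called in both comparisons under every alternative run, which included leaving out each array.

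Cldn3, Cldn4, Cldn5 and Cldn7 were nearer to their reference on the arrays labelled +/+ than the claudins called above. At 7 and 3 days Cldn3 had −0.12 and −0.63, the 2 Cldn4 probes −0.05 and −0.01 and 0.09 and −0.57, Cldn5 −0.12 and −0.36, and Cldn7 −0.39 and −0.56. Cldn1 was the only member above its reference on both arrays with every probe. By limma its Cy/+ value against the arrays labelled +/+ was −0.08 ± 0.20 with the brighter probe, adjusted p = 0.795. With the dimmer probe it was 0.07 ± 0.22, adjusted p = 0.846. The Cy/Cy value was −0.44 ± 0.22 with the dimmer probe, adjusted p = 0.197, and −0.67 ± 0.20 with the brighter, adjusted p = 0.0575. That became −0.99, adjusted p = 0.00153, without the 7-day array labelled +/+, and its adjusted p ran between 0.00153 and 0.382 over all alternatives. On the whole, Cy5 of both arrays labelled +/+ lay below all 10 other channel values for 6 of 12 probes (Cldn2, Cldn3, Cldn8, Cldn10, Cldn16 and Cldn19), beside 23.7% of all probes, and above them for none, beside 20.6%. The liver, lung and tubule medians given above move with these values, and their part was not tested.

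**Figure D3:**
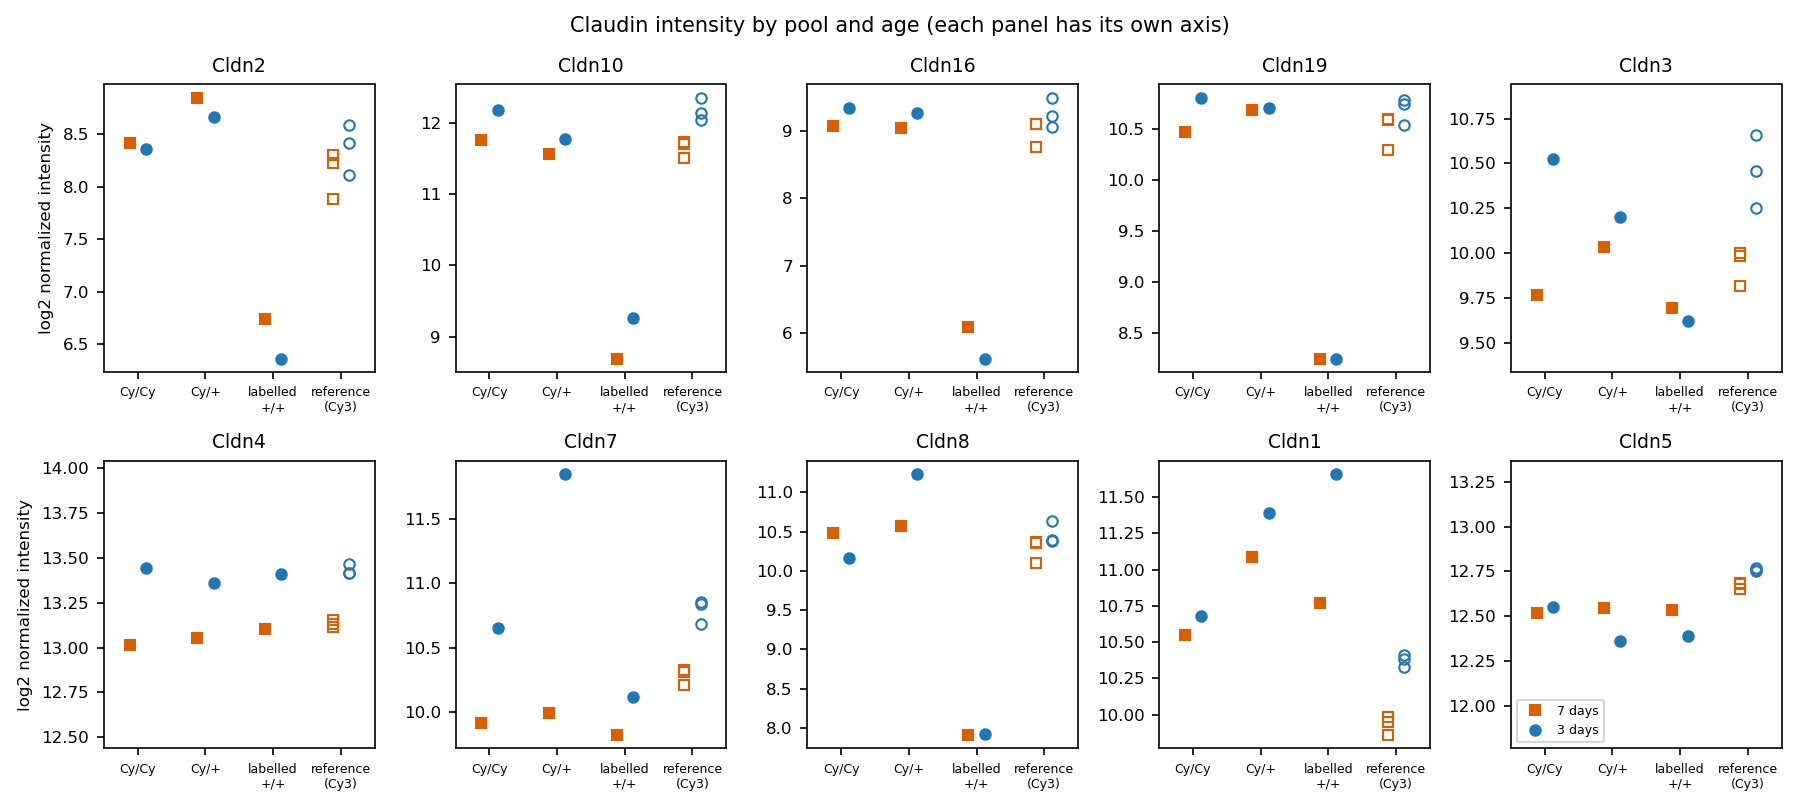
Normalized log2 intensity (y axis, its own range in each panel) of the brightest probe of each claudin in the Cy/Cy, Cy/+ and labelled +/+ pools (Cy5, filled) and the 3 reference hybridisations of each age (Cy3, open); squares are 7 days, circles 3 days. Cldn1 is lowest in the reference, Cldn7 is high in the 3-day Cy/+ pool, and Cldn2, Cldn8, Cldn10, Cldn16 and Cldn19 are low in the pools labelled +/+.

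Between 7 and 3 days, levels were compared in the Cy/Cy, Cy/+ and reference pools. In the test the reference value of an age was the mean Cy3 level of the mutant arrays of that age. The values of an age thus come from the same hybridisations and are not independent, which the p-values do not take into account. Cldn4, Cldn10 and, with its dimmer probe, Cldn1 were lower at 7 days, by about 1.3- to 1.4-fold. None of the claudins was called higher. The 4 of 12 probes called lower stand beside 4.3% of all probes called lower, 5.43% called higher and 9.73% called in either direction, on single-channel values in which age and slide cannot be told apart.

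The brighter Cldn4 probe had a normalized log2 intensity of 13.01 at 7 days and 13.44 at 3 days in the Cy/Cy pool, 13.05 and 13.36 in the Cy/+ pool, and 13.13 ± 0.02 and 13.43 ± 0.03 in the reference (SD, n = 3 hybridisations). All values of 7 days lay below those of 3 days. It was −0.35 ± 0.07 at 7 days against 3 days, adjusted p = 0.0361, and the dimmer probe −0.53 ± 0.09, adjusted p = 0.0287. Without the 3-day or the 7-day Cy/Cy array the brighter probe had adjusted p = 0.0813 and 0.0924, and with the software's signals 0.078; over all alternatives its adjusted p ran between 0.00118 and 0.0924.

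Cldn10 had 11.75 at 7 days and 12.18 at 3 days in the Cy/Cy pool, 11.56 and 11.77 in the Cy/+ pool, and 11.64 ± 0.12 and 12.17 ± 0.16 in the reference. It was −0.39 ± 0.08 at 7 days, adjusted p = 0.0442, and each pool was lower at 7 days. The call was lost without either Cy/Cy array (adjusted p = 0.0868 and 0.0912), without the filter on dim probes (0.0506), with median centring (0.0558), without the pool as a block (0.134) and with software signals (0.153); its lowest adjusted p over the alternatives was 0.00118. Cldn1 was −0.29 ± 0.08 with the brighter probe, adjusted p = 0.078, and −0.49 ± 0.09 with the dimmer, adjusted p = 0.0333, so its probes fell on either side of the threshold.

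Cldn7 was −1.04 ± 0.25, adjusted p = 0.0544, with 9.91 at 7 days and 10.65 at 3 days in the Cy/Cy pool, 9.99 and 11.85 in the Cy/+ pool, and 10.28 ± 0.06 and 10.79 ± 0.09 in the reference. Without the 3-day Cy/+ array it was −0.64, adjusted p = 0.000968, so it was lower at 7 days in the pools left as well, by less. Cldn3 was −0.50 ± 0.12, adjusted p = 0.0554, and −0.71, adjusted p = 0.00046, without that array. Over all alternatives the adjusted p ran between 0.000968 and 0.104 for Cldn7 and between 0.00046 and 0.128 for Cldn3. Cldn16 was −0.25 ± 0.06, adjusted p = 0.0651.

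Cldn2 and Cldn5 stood at 0.00 ± 0.10 and 0.02 ± 0.08, and Cldn19 at −0.18 ± 0.08, adjusted p = 0.209. Cldn8 was −0.16 ± 0.18, with 10.49 at 7 days and 10.16 at 3 days in the Cy/Cy pool but 10.57 and 11.23 in the Cy/+ pool. Its pools went in opposite directions, and that difference was not tested. In the reference alone, all 3 hybridisations of 7 days lay below all 3 of 3 days for 9 of 12 probes of 7 genes, beside 16.7% of all probes, and above them for none, beside 19.3%. Without normalization between arrays the median of all probes was −0.38 and all 12 probes were called lower.

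**Figure D4:**
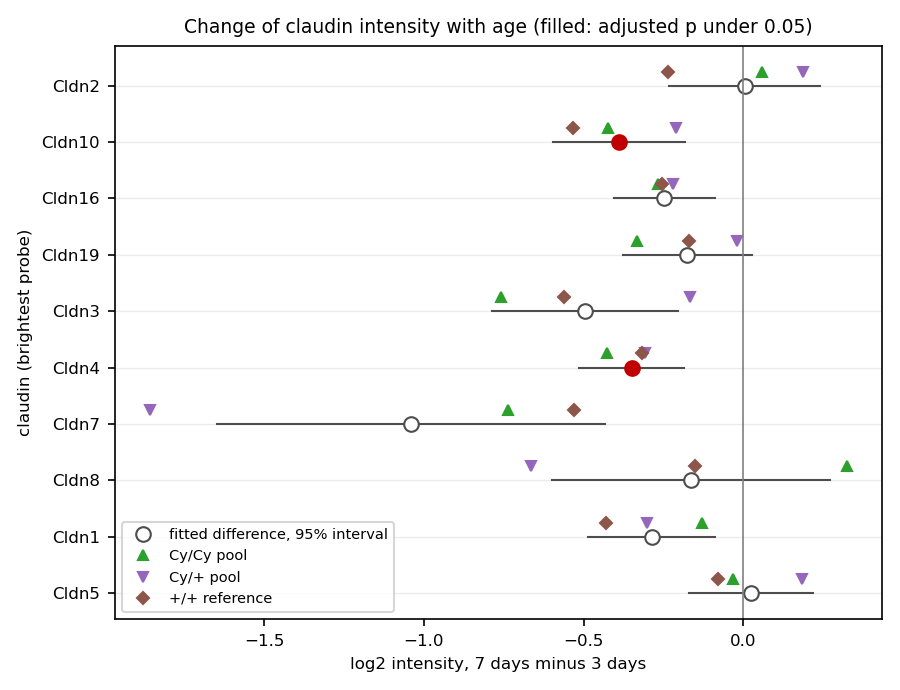
Log2 intensity at 7 days minus 3 days (x axis) for the brightest probe of each claudin (y axis): the fitted difference (circle, filled where the adjusted p is under 0.05) with its 95% interval, and the differences of the Cy/Cy pool, the Cy/+ pool and the mean reference. Cldn10 at −0.39 and Cldn4 at −0.35 are filled, and the Cldn7 value of the Cy/+ pool lies far left of the others.

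The other genes of the junction came from lists of further claudins, other junction proteins and regulators or partners of claudins. Of 15 further claudins 8 were measured, and none was called in Cy/Cy or Cy/+ kidneys against the reference; Cldn23 in Cy/+ kidneys came nearest at 0.26 ± 0.08, adjusted p = 0.0899. Of 27 other junction proteins 1 was higher in Cy/+ kidneys, the polarity kinase Prkci at 0.43 ± 0.08 (adjusted p = 0.0336), and 1 lower, the polarity scaffold Pals1 at −0.35 ± 0.07 (adjusted p = 0.0401). In Cy/Cy kidneys none of these 27 was called. Over all probes 4.63% were called higher and 3.3% lower in Cy/+ kidneys, and 0.00647% were called in Cy/Cy kidneys. Their medians were 0.02 in Cy/+ and −0.03 in Cy/Cy kidneys.

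Of 22 regulators and partners 4 were lower in Cy/+ kidneys, beside 3.3% of all probes, and none was called in Cy/Cy kidneys. Casr, the calcium-sensing receptor of the thick ascending limb that lowers claudin-mediated calcium uptake, had at 7 and 3 days −0.52 and −0.35 in Cy/Cy kidneys and −0.81 and −1.23 in Cy/+ kidneys. It was −1.02 ± 0.11 in Cy/+ kidneys, adjusted p = 0.0106, on the arrays where Cldn16 and Cldn19 stood within 0.2 of their reference. Snai1 and Zeb2, repressors of epithelial junction genes, were −0.57 ± 0.12 and −0.53 ± 0.11 in Cy/+ kidneys, with adjusted p = 0.0441 and 0.0394.

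Against the arrays labelled +/+, 2 further claudins were higher and 3 lower in Cy/Cy kidneys, and 3 and 2 in Cy/+ kidneys. Cldn6, a claudin of immature epithelia, was 0.94 ± 0.13 higher in Cy/Cy and 0.85 ± 0.13 higher in Cy/+ kidneys, and Cldn14, which blocks the Cldn16 and Cldn19 pathway in mice, stood at −0.59 ± 0.13 and −0.68 ± 0.13 in Cy/Cy and Cy/+ kidneys. As given above, 10.6% of all probes were higher and 18.4% lower in Cy/Cy kidneys, and 11% and 18.7% in Cy/+ kidneys. Junction proteins were 7 higher and 3 lower in Cy/Cy and 10 and 3 in Cy/+ kidneys, among them Ybx3, a regulator that binds ZO-1, at −1.85 in Cy/Cy and −1.89 in Cy/+ kidneys, the polarity protein Crb3 at 1.73 and 1.78, and the polarity scaffold Pals1 at 1.47 and 1.29. Of the regulators 12 were higher in both, with Casr at 3.43 in Cy/Cy and 2.84 in Cy/+ kidneys and the kidney cadherin Cdh16 at 3.05 and 2.81. At 7 days against 3 days, Cldnd1 at −0.40, Tjp3 at −0.33, Mpdz at −0.28, Cd9 at −0.36 and Cdh16 at −0.34 were lower and Tjap1 at 0.33 was higher. Of 8 further claudins 1 was called lower, and of 27 junction proteins 2 were called lower and 1 higher. Over all probes 4.3% were called lower and 5.43% higher between these ages.

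Genes with a pattern like that of a claudin were found by Pearson's r over normalized log2 intensities, among 14794 candidate probes. Each claudin entered by its brightest probe, and a candidate gene by whichever of its probes was most alike. The 8 values of the mutant arrays share reference pools and slides. Over them Cldn3 was nearest to the dimmer probe of Cldn4 (r = 0.986) and Cldn1 to Gpr176 (r = 0.993). Cldn7 was nearest to Laptm5, Fcgr3 and Coro1a (r = 0.992, 0.989 and 0.987). Cldn4 by its brighter probe was nearest to Rrbp1 (r = 0.998), and Cldn8 to Slc25a26 (r = 0.985). Over all 12 values, where the arrays labelled +/+ set most of the range, Cldn8 was nearest to the vasopressin receptor Avpr2 (r = 0.991), Cldn10 to Tlr3 and Cdh16 (r = 0.994 each), Cldn16 to Paqr5 (r = 0.998) and Cldn19 to Cryz and Neurl3 (r = 0.997 each). Avpr2, Paqr5, Cryz and Neurl3 were not among the 3 most alike to these claudins over the 8 values. These are descriptions of few, shared samples.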

How the data were processed

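Per the labels, total RNA of pooled left kidneys was amplified, labelled and hybridised to 60-base probes in 2 colours. Spot and background signals were deposited as unnormalized intensity, and processed signals as dye-normalized intensity, per the file headers (Agilent Feature Extraction 9.5.1.1, though the series text names another version). Per the file headers, log ratios are log10 of Cy5 over Cy3 in processed signals, and a p-value of each spot was computed by the software (not used for any call); the authors' series table held the same log10 values (largest difference 0).

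With limma 3.58.1 in R 4.3.3, mean signals were corrected with normexp (offset 50) and loess-normalized. Probes were kept if at least 2 arrays had them well above background in Cy5 or Cy3 (30917 of 41012). Log2 ratios of the 4 mutant arrays were fitted with a mean per genotype (2 residual degrees of freedom, prior 4.63), all 6 arrays with genotype and age (2 and 3.32), and single channels after Aquantile with age and pool (2 and 3.95), at an adjusted p under 0.05. A gene is shown by its brightest probe, with all probes given. Fits were run on simulated data whose noise was independent, smaller than the spread of the mutant arrays and without dye effects. That checks the code and not the calls given here. Members, lists and tests were chosen with earlier results of these data known. Named genes are all members, from each list those called with the largest change (up to 4), or the 2 nearest, and some of the 3 most alike per claudin. Among markers of other cells, names were chosen after their values were seen. Alternatives changed centring, background, ratios, filter, blocks and arrays. A gene of the regulator list is not reported here.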

Additional observations from a re-analysis of the deposited data

How the results depend on the processing

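Among the claudin values called, none turned its direction in 154 recomputations, and 10 lost the call. Most of the called values were those against the arrays labelled +/+, and none of these lost it. All losses were of Cldn1 in Cy/+ kidneys and of Cldn4 and Cldn10 between ages. Among those not called, 60 of 518 turned and 33 gained a call. With median centring in place of loess the median of all probes was 0.17 in Cy/Cy and 0.19 in Cy/+ kidneys, 13257 and 15383 probes were called in place of 2 and 2450 (76.5% and 80.3% higher, against 100% and 58.4%), claudin probes called were 5 and 8 in place of 0 and 2, and Cy/Cy against Cy/+ gave 9 probes. The uncalled values then turned in Cy/Cy kidneys to 0.13 for Cldn2, 0.16 for Cldn3, 0.46 for Cldn4, 0.29 for Cldn5, 0.0467 for Cldn7, 0.30 for Cldn8, 0.38 for Cldn10, 0.17 for Cldn16 and 0.31 for Cldn19. In Cy/+ kidneys they turned to 0.29 for Cldn3, 0.565 for Cldn4, 0.30 for Cldn5, 0.25 for Cldn10 and 0.31 for Cldn16. Cy/Cy against Cy/+ turned to −0.10 for Cldn4 and −0.0171 for Cldn5, and Cy/+ against the arrays labelled +/+ to 0.0586 for Cldn1, 0.0507 for Cldn4 and 0.0835 for Cldn5.

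With the software's log ratios no probe was called in Cy/Cy or Cy/+ kidneys or between ages, so 0 claudin probes in each; against the arrays labelled +/+ 55.6% and 55.9% of calls were then higher for Cy/Cy and Cy/+, against 36.5% and 37.1%. The values that turned were 0.0235 and 0.0228 for Cldn4 in Cy/Cy and Cy/+, 0.15 for Cldn1 and 0.0835 for Cldn5 in Cy/+, and −0.00998 for Cldn2 between ages. Without background correction 0 probes were called in Cy/Cy kidneys, and Cldn16 was 0.00221 in Cy/+ kidneys. The other probe of the gene gave −0.0763 for Cldn4 in Cy/Cy against Cy/+, and against the arrays labelled +/+ 0.0544 for Cldn4 in Cy/Cy, and 0.13 for Cldn4 and 0.0668 for Cldn1 in Cy/+. With 1 probe per gene name 1 claudin probe was called in Cy/+ kidneys and 2 between ages, by construction. Without the pool as a block 1190 probes and 2 claudin probes were called between ages, against 3008 and 4. Without normalization between arrays 21897 probes (0.859% higher) and 12 claudin probes were, and Cldn2 and Cldn5 turned to −0.44 and −0.55. The cause was not tested.

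The arrays of a replicate number share age and slide. With this replicate block (age) 15 probes were called in Cy/Cy and 4879 in Cy/+ kidneys. Among the claudins it changed the side of the threshold only for Cldn2 in Cy/+ kidneys, which it brought under it; leaving age out of the fit on 6 arrays did so only for Cldn1 in Cy/Cy against the arrays labelled +/+.

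Leaving out 1 array at a time gave 0 to 72 probes called in Cy/Cy kidneys, 811 to 3249 in Cy/+ kidneys (2 to 5 claudin probes), 0 to 214 in Cy/Cy against Cy/+ (0 to 1), 3172 to 11522 and 3668 to 11692 for Cy/Cy and Cy/+ against the arrays labelled +/+ (5 to 7 and 5 to 6), and 2075 to 8405 between ages (3 to 8). Uncalled values crossed 0 among these: in Cy/Cy kidneys Cldn2 (−0.226 to 0.11), Cldn8 (−0.227 to 0.138), Cldn10 (−0.172 to 0.059) and Cldn19 (−0.114 to 0.0234), and in Cy/+ kidneys Cldn3 (−0.252 to 0.0328), Cldn7 (−0.334 to 1.01), Cldn16 (−0.0586 to 0.0378) and Cldn19 (−0.0365 to 0.0888). In Cy/Cy against Cy/+ they were Cldn3 (−0.208 to 0.0765), Cldn4 (−0.0288 to 0.0489), Cldn5 (−0.0528 to 0.221) and Cldn7 (−1.31 to 0.0359). Against the arrays labelled +/+ they were Cldn3 (−0.0403 to 0.443), Cldn5 (−0.0584 to 0.161) and Cldn7 (−0.291 to 0.647) in Cy/Cy, and Cldn1 (−0.397 to 0.238) and Cldn5 (−0.0976 to 0.0327) in Cy/+. Between ages they were Cldn2 (−0.13 to 0.018), Cldn5 (−0.054 to 0.0508) and Cldn8 (−0.469 to 0.148). Signal over background limits only Cldn16 on the arrays labelled +/+.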
